A study of Mus musculus with 11 samples.

Results

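The solute carrier (SLC) genes were read in 11 RNA-seq libraries of lymph node (LN) and spleen, from mice with or without an added BCL2 driven by immunoglobulin sequences. Members were all genes of the deposited table whose symbol had the form Slc, number, a, number, without Slc40a1. There were 157 such genes among 10885. They fell into 10 classes by what they carry: 34 mitochondrial Slc25 carriers, 25 amino acid transporters, 24 ion transporters, 24 metal transporters, 13 for glucose and other sugars, 12 for organic ions and lipids, 10 for vitamins and nucleosides, and 5 each for carboxylates, nucleotide sugars and other substrates. The xCT gene Slc7a11 was not analysed here.

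SLC proteins are membrane carriers that move nutrients, ions, metals and metabolites across the plasma membrane or between organelles, by facilitated diffusion or coupled to ion gradients. In lymphocytes, amino acid exchangers such as Slc7a5, paired with the heavy chain Slc3a2, and the glucose carriers Slc2a1 and Slc2a3 are known to be raised on activation. Cells that secrete antibody also draw on carriers of the secretory pathway, which bring zinc, nucleotide sugars and acetyl-CoA into the endoplasmic reticulum (ER) and Golgi. Slc25 members sit in the inner mitochondrial membrane and exchange nucleotides, phosphate and metabolites with the cytosol.

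KI mice (mice 5 and 6) had BCL2 knocked in at the immunoglobulin kappa locus, Tg mice (mice 3 and 4) carried BCL2 as a transgene driven by the heavy chain's 3' regulatory region (3'RR), and Wt mice (mice 1 and 2) had neither. BCL2 blocks apoptosis. All mice, Wt included, had 3 intraperitoneal immunisations with sheep red blood cells over 3 months, and tissue was taken 1 month after the last. RNA came from dissociated whole-tissue cells, so every value is a mixture of cell types. Each group of tissue and genotype had 2 libraries, except Tg spleen with 1 (mouse 4), and spleen and LN of a number came from the same mouse. Genotype cannot be told apart from anything else shared by 2 mice of a genotype, such as a litter or the day of handling. In the column labels, the mouse numbers of Wt and Tg lie close together, while those of KI lie far from them. What these numbers stand for is not given. Age and sex are not given in the sources used here. Every log2 difference below is on the scale log2(signal + 1).

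Over the 10885 genes of the deposited table, libraries held 11128568 to 24110325 reads, as recovered from the steps of the normalised values. In spleen, low values were too few to check this recovery. The mouse Bcl2 gene had a signal of 1246 to 1664 in KI, 2065 to 3171 in Tg and 2338 to 2716 in Wt libraries. Whether the inserted BCL2 adds reads to it is not given in the sources used here, so it does not check the labels. SLC genes took between 0.751% and 0.831% of the signal of a library and Slc25 genes between 0.174% and 0.205%. Cell type markers moved with the knock-in. The summed signal of 11 plasma cell markers was 153200 to 157300 in KI LN, against 12100 to 15710 in Wt LN, and 83300 to 133700 in KI spleen, against 27920 to 30220 in Wt spleen. The sum of 11 T cell markers was 30970 to 39910 in KI LN, against 70040 to 74100 in Wt LN, and 17290 to 18360 in KI spleen, against 34990 to 36400 in Wt spleen. The sum of 9 germinal centre markers was 18250 to 23480 in KI LN, against 3772 to 3907 in Wt LN, and 6149 to 8377 in KI spleen, against 3912 to 4172 in Wt spleen. For B cells (9 markers) it was 83750 to 103600 in KI LN, against 58290 to 66280 in Wt LN, and 127500 to 141400 in KI spleen, against 93890 to 101000 in Wt spleen. The 14 proliferation genes summed to 18060 to 22070 in KI LN, against 12650 to 13170 in Wt LN, and to 8917 to 10950 in KI spleen, against 12080 to 16200 in Wt spleen. No marker of these lists was at 0 in all libraries of a group. In bulk tissue, more or fewer cells of a type and more or less RNA per cell cannot be told apart, and the part of these shifts in any SLC difference was not tested.

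Per length, the most abundant SLC gene was Slc25a5, the ADP/ATP carrier that exports ATP from mitochondria, at 2559 normalised signal per kb of exon (mean of 11 libraries, lengths from GENCODE M21). It was followed by Slc1a5, a glutamine and neutral amino acid exchanger (1542 per kb), the mitochondrial phosphate carrier Slc25a3 (1372 per kb) and the heavy chain Slc3a2 (1273 per kb). The median member stood at 91.5 per kb and the lowest at 3.76 per kb. Many members varied little: the highest of the 6 group means was under 1.5 times the lowest for 66 of the 157 members, over 2 times for 40 and over 4 times for 13.

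Promoters are shown for 4 members that the results below turn on, because they carry letters bound by factors of the amino acid and ER stress responses or by E-box factors. They run from 250 bases before to 50 bases after the annotated start (RefSeq, GRCm38.p6), 5′ to 3′ on the gene's strand. Capitals mark matches to TGATGNAA (the core of a C/EBP-ATF element), TGACGTGG (the letters of the XBP1 and ATF6 element) or CACGTG (an E-box), each searched on both strands. The match of Slc1a4 is on the opposite strand. Slc1a4 lies at chr11:20332664-20332963, minus strand, Slc30a5 at chr13:100833378-100833677, minus strand, Slc33a1 at chr3:63964684-63964983, minus strand and Slc20a1 at chr2:129198523-129198822, plus strand (the first of its 2 entries).
Slc1a4: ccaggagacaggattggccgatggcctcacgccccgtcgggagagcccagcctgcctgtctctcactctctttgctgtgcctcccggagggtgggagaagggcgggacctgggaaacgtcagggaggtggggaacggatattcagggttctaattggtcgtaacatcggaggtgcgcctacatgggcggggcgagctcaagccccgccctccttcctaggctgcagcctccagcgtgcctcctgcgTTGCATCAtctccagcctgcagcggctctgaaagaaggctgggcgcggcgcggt
Slc30a5: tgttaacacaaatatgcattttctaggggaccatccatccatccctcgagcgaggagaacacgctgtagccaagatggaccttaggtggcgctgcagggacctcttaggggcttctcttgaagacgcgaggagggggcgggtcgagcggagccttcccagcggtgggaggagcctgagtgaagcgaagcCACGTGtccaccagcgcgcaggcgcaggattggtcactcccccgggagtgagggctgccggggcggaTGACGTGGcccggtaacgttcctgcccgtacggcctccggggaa
Slc33a1: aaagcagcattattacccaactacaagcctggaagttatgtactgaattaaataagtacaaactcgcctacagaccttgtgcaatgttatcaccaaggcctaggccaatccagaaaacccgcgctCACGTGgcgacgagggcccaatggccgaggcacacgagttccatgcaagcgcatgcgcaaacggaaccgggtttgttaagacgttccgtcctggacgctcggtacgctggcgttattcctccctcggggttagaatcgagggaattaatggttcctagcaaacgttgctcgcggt
Slc20a1: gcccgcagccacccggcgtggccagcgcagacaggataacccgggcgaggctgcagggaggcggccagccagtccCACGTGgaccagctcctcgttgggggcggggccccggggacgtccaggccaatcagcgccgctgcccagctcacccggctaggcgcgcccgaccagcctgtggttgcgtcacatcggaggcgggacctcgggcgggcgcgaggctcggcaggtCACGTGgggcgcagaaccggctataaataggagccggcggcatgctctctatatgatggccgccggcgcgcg
Among 32851 RefSeq promoters of this length, 3.97% held TGATGNAA, 0.676% held TGACGTGG and 7.15% held CACGTG. Of the 118 members with a RefSeq promoter, 6 held TGATGNAA, 3 held TGACGTGG and 21 held CACGTG. The percentages are of promoter entries, while a member counts if any of its entries has a match, so they are not directly comparable. The E-box letters stood in the promoters of 5 of 20 members higher in KI LN, 4 of 19 lower and 12 of 79 not called. For TGATGNAA these counts were 2, 1 and 3, and for TGACGTGG 1, 0 and 2. Slc30a5 and Slc33a1 were higher in KI LN and Slc20a1 was lower, so CACGTG occurred on both sides. A match describes the letters of this window and shows no binding.

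The first question was what the kappa-locus knock-in changed. In LN, 25 of the 157 members were higher in KI than in Wt mice and 22 were lower (limma, adjusted p under 0.05 over all genes). Of all 10885 genes tested, 26% were called, 13.8% higher and 12.2% lower. The median log2 difference was 0.018 over the members and -0.024 over all genes. In spleen 15 members were higher and 12 lower, where 16.8% of all genes were called, 7.63% higher and 9.21% lower, with medians of 0.10 and 0.0056. The shares of SLC genes called were near those of the whole table. Among the calls, no KI library overlapped a Wt library of the same tissue.

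The balance of the directions depended on the scaling. Leaving out 197 immunoglobulin and haemoglobin genes before scaling moved the median of all genes by 0.13 log2 units in LN and 0.092 in spleen. The split of called members became 41 higher and 14 lower in LN and 33 higher and 10 lower in spleen. The count also rested on single animals. With all libraries of mouse 5 left out, 12 members were higher and 7 lower in LN and 4 higher and 3 lower in spleen. With all libraries of mouse 1 left out, 14 were higher and 10 lower in LN and 5 higher and 7 lower in spleen. Over all omissions of a library or mouse, LN counts ran from 12 to 21 higher and 7 to 13 lower, and spleen counts from 4 to 7 higher and 3 to 8 lower. Calls that held in every alternative numbered 11 higher and 4 lower in LN and 3 higher and 3 lower in spleen, and no called member of these comparisons reversed its direction in any alternative.

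**Figure D1:**
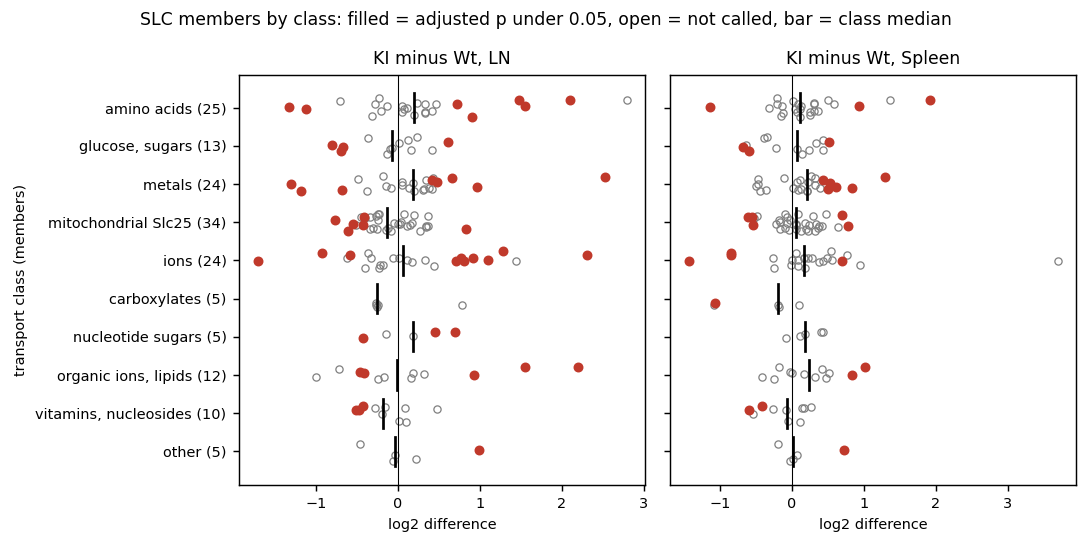
Log2 difference of each of the 157 SLC genes in KI minus Wt mice (x axis), by transport class (y axis, with the number of members), in LN (left) and spleen (right). Filled points passed adjusted p under 0.05, open points did not, and bars are class medians. In LN, called members stand on both sides of 0 in most classes, and the 6 called metal transporters of spleen were all higher in KI.

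Of 25 amino acid transporters, 5 were higher and 2 lower in KI LN, with a class median of 0.20, and 2 were higher and 1 lower in KI spleen. The share called was 28% in LN, where it was 26% of all genes, and 12% in spleen, where it was 16.8% of all genes. Slc1a4, which exchanges alanine, serine and cysteine, had a normalised signal of 146 and 147 in KI LN, 25.5 and 65.8 in Tg LN and 27.4 and 40.5 in Wt LN. In spleen it was 82.3 and 149 in KI spleen, 51.9 in Tg spleen and 27.9 and 29.1 in Wt spleen. KI libraries were above all others in both tissues, and the LN difference was 2.10 ± 0.47 (SE, limma adjusted p = 0.00766) and the spleen difference 1.92 ± 0.47 (SE, limma adjusted p = 0.0189). Every gene of the deposited table reaches at least 109.3 somewhere, and Slc1a4 did so only in KI libraries. Its place in the table thus rests on the group where it is high, and its p-values are not independent of that. Slc43a1, a carrier of large neutral amino acids, stood at 218 and 147 in KI LN, 82.1 and 84.4 in Tg LN and 58.1 and 63.4 in Wt LN. Spleen values were 372 and 234 in KI spleen, 177 in Tg spleen and 154 and 155 in Wt spleen. Its KI libraries were again above the others, with differences of 1.55 ± 0.26 (SE, limma adjusted p = 0.00198) in LN and 0.93 ± 0.26 (SE, limma adjusted p = 0.0355) in spleen. Slc7a7, which forms the cationic amino acid exchanger y+LAT1 with Slc3a2, was at 285 and 377 in KI LN, 183 and 151 in Tg LN and 121 and 113 in Wt LN. All KI LN values lay above Tg and Wt (1.48 ± 0.23 SE, limma adjusted p = 0.0011). In spleen it was not called (0.50, limma adjusted p = 0.161). The proton-coupled amino acid transporter Slc36a4 was at 350.1 and 371 in KI LN, 224 and 184 in Tg LN and 190.3 and 193 in Wt LN, with a difference of 0.91 ± 0.17 (SE, limma adjusted p = 0.00367).

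The exchanger Slc7a5 (LAT1), which brings in leucine, was at 1843 and 1871 in KI LN, 1144 and 1603 in Tg LN and 939 and 1344 in Wt LN. KI libraries were the highest, Tg mouse 4 lay nearest to them, and the difference from Wt was 0.72 ± 0.21 (SE, limma adjusted p = 0.0307). Its heavy chain Slc3a2 (0.33, adjusted p = 0.114 by limma), the glutamine carrier Slc1a5 (0.24, adjusted p = 0.147 by limma) and Slc38a2, a sodium-coupled neutral amino acid carrier (0.06, adjusted p = 0.87 by limma), did not pass in LN, nor did any of these 4 in spleen. The 2 lower genes of LN were Slc16a10, which carries aromatic amino acids, and Slc6a19, a sodium-coupled neutral amino acid transporter best known from gut and kidney. Slc16a10 was at 116 and 111 in KI LN, 202 and 213 in Tg LN and 281 and 221 in Wt LN, with KI values below both other genotypes and a difference of -1.12 ± 0.17 (SE, limma adjusted p = 0.00102). In spleen, at 294 and 284 in KI spleen, 276 in Tg spleen and 274 and 263 in Wt spleen, KI values were slightly the highest and the gene was not called (0.10, limma adjusted p = 0.707). Slc6a19 was at 92.2 and 134 in KI LN, 293 and 232 in Tg LN and 316 and 249 in Wt LN. Its spleen values were 66.9 and 63.8 in KI spleen, 153 in Tg spleen and 184 and 116 in Wt spleen. KI values were lowest in both tissues, with differences of -1.33 ± 0.27 (SE, limma adjusted p = 0.00543) in LN and -1.15 ± 0.27 (SE, limma adjusted p = 0.0181) in spleen. Some of these calls were lost when 1 or both libraries of a mouse were left out. In LN they were Slc1a4 without mouse 1, 5 or 6 (1.83 to 2.11), Slc7a5 without mouse 1, 5 or 6 (0.47 to 0.74) and Slc6a19 without mouse 5 (-1.06). In spleen they were Slc1a4 without mouse 1, 2, 5 or 6 (1.5 to 2.35), Slc43a1 without mouse 1, 2 or 5 (0.60 to 0.93) and Slc6a19 without mouse 1, 5 or 6 (-1.18 to -0.81). edgeR on recovered LN reads did not call Slc7a5. Of 23 other genes of amino acid metabolism, 3 were higher and 4 lower in KI LN and 2 higher and 1 lower in KI spleen. Of 24 measured genes of a list of Atf4 and targets of this amino acid response factor, 8 were higher and 1 lower in LN and 6 higher and 4 lower in spleen. Of all genes, 13.8% were higher and 12.2% lower in LN, and 7.63% higher and 9.21% lower in spleen. The summed signal of the 24 genes was lower in KI, unlike the counts. It was 37180 to 37820 in KI LN, against 42110 to 44500 in Wt LN, and 32420 to 37450 in KI spleen, against 46270 to 46920 in Wt spleen.

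Among metal transporters, 5 of 24 were higher and 3 lower in KI LN, and 6 were higher and none lower in KI spleen. Beside these counts, 13.8% of all genes were higher and 12.2% lower in LN, and 7.63% higher and 9.21% lower in spleen. In spleen the class median was 0.20. There 10 members passed an unadjusted p under 0.05, a count for which no share of all genes is given here. Slc41a2, a magnesium transporter, had the largest called increase of all members in LN. Its signal was 1114 and 963 in KI LN, 283 and 272 in Tg LN and 164 and 195 in Wt LN. In spleen the values were 657 and 587 in KI spleen, 332 in Tg spleen and 299.9 and 212 in Wt spleen. KI values were far above the rest in LN and above all others in spleen, with differences of 2.53 ± 0.18 (SE, limma adjusted p = 1.71e-05) and 1.30 ± 0.18 (SE, limma adjusted p = 0.0016). Its relative Slc41a3 went the other way in LN, at 85.6 and 56.3 in KI LN, 167 and 141 in Tg LN and 189 and 158 in Wt LN (-1.30 ± 0.28 SE, limma adjusted p = 0.00729). Slc30a5 (ZnT5), which loads zinc into the early secretory pathway, was at 2486 and 2319 in KI LN, 1418 and 1391 in Tg LN and 1140.1 and 1320.4 in Wt LN. Spleen signal was 2046 and 2162 in KI spleen, 1304 in Tg spleen and 1422 and 1343 in Wt spleen. KI libraries were the highest in both tissues, with differences of 0.97 ± 0.11 (SE, limma adjusted p = 0.00016) and 0.61 ± 0.11 (SE, limma adjusted p = 0.00457).

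Other zinc carriers were called in 1 or both tissues. Slc30a1, the zinc exporter of the plasma membrane, was at 457 and 468 in KI spleen, 264 in Tg spleen and 267 and 249 in Wt spleen, so both KI spleens exceeded every other spleen (0.84 ± 0.16 SE, limma adjusted p = 0.00681). In LN it was not called (0.39, limma adjusted p = 0.1). Slc39a9, of the zinc importer family, was higher in both tissues, by 0.42 in LN and 0.43 in spleen. Slc30a7, of the Golgi, was higher in LN (0.48, limma adjusted p = 0.0227) and Slc30a6, the partner of Slc30a5, in spleen (0.53, limma adjusted p = 0.0478). The plasma membrane importer Slc39a1 was called in neither tissue, at 0.05 and 0.32. The copper importer Slc31a1 was at 452 and 464 in KI LN, 306 and 278 in Tg LN and 271 and 307 in Wt LN, and its KI LN values lay above the others (0.67 ± 0.14 SE, limma adjusted p = 0.00602).

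Both measured members of the Slc11 family, which carry iron and manganese, were lower in KI LN. Slc11a1 (Nramp1), the metal pump of macrophage and neutrophil phagosomes, was at 43.9 and 33.3 in KI LN, 83.5 and 124 in Tg LN and 98.4 and 78.8 in Wt LN. KI values were the lowest (-1.18 ± 0.25 SE, limma adjusted p = 0.00613). Its relative Slc11a2 (DMT1), the ferrous iron importer, was at 502 and 646 in KI LN, 766 and 1119 in Tg LN and 877 and 954 in Wt LN, also with the KI libraries lowest (-0.68 ± 0.19 SE, limma adjusted p = 0.026). Neither was called in spleen (-0.44 and -0.36). The summed signal of 13 macrophage markers, none of them at 0 in all libraries of a group, was 1364 to 1395 in KI LN, against 2179 to 3095 in Wt LN. In LN 8 of the 13 were lower in KI. In spleen the sum was 11700 to 11830 in KI, against 9886 to 10070 in Wt, with none of the 13 called. The sum of 13 neutrophil markers was 571.2 to 676.1 in KI LN, within the range of 162.9 to 1949 in Wt LN. In spleen the neutrophil sum was 2521 to 7593 in KI, against 6971 to 53520 in Wt. The part of either cell type in the Slc11a1 difference was not tested. Slc48a1, which releases haem from the lysosome, was at 1177 and 1146 in KI spleen, 728 in Tg spleen and 769.6 and 877 in Wt spleen. Both KI spleens were highest (0.50 ± 0.13 SE, limma adjusted p = 0.0234), while the summed erythroid markers were 25170 and 2986 in KI spleen, against 737.8 to 1082 in Wt spleen, and their part was not tested. Of 18 other metal-handling genes, 1 was higher and 4 lower in KI LN and none was higher and 2 lower in KI spleen. That stands beside 26% of all genes called in LN and 16.8% in spleen. Calls lost in LN without libraries of 1 mouse were Slc31a1 without mouse 1, 5 or 6 (0.57 to 0.68), Slc30a7 without mouse 1, 2, 5 or 6 (0.39 to 0.57), Slc39a9 without mouse 1, 2, 5 or 6 (0.38 to 0.46), Slc11a1 without mouse 1 or 6 (-1.02 to -0.99), Slc11a2 without mouse 1, 2 or 5 (-0.74 to -0.50) and Slc41a3 without mouse 1 or 6 (-1.17 to -1.0). In spleen they were Slc30a5 without mouse 6 (0.57), Slc30a1 without mouse 2, 5 or 6 (0.79 to 0.86), Slc48a1 without mouse 1, 2, 5 or 6 (0.40 to 0.59), Slc39a9 without mouse 1, 2, 5 or 6 (0.40 to 0.46) and Slc30a6 without mouse 1, 2, 5 or 6 (0.40 to 0.66). By edgeR in LN, Slc30a7, Slc39a9 and Slc11a2 were not called.

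**Figure D2:**
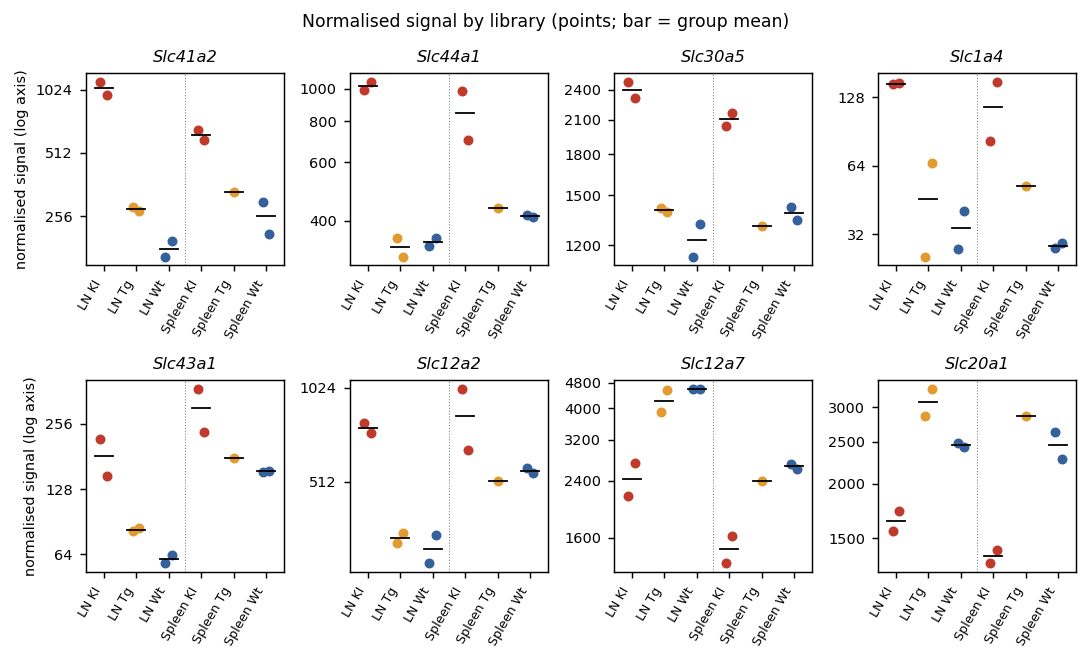
Normalised signal (log axis, units of the deposited table) of 8 SLC genes in each library, by tissue and genotype. Points are mice, bars are group means, and KI is red, Tg orange and Wt blue. KI points stand apart from Wt points in both tissues for every gene shown, upward for the first 6 and downward for Slc12a7 and Slc20a1, although the spleen difference of Slc12a2 did not pass the test.

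Ion transporters had 7 of 24 members higher and 3 lower in KI LN, and 1 higher and 3 lower in KI spleen. Over all genes, 13.8% were higher and 12.2% lower in LN, and 7.63% higher and 9.21% lower in spleen. Cation-chloride cotransporters, which set cell volume and chloride, were called in both directions. Slc12a7 (KCC4), which carries potassium and chloride out, was at 2148 and 2709 in KI LN, 3906 and 4544 in Tg LN and 4573 and 4594 in Wt LN. Spleen values were 1337 and 1620.0 in KI spleen, 2386 in Tg spleen and 2696 and 2612 in Wt spleen. KI values were the lowest in both tissues, with differences of -0.93 ± 0.14 (SE, limma adjusted p = 0.000895) and -0.85 ± 0.14 (SE, limma adjusted p = 0.00325). Slc12a2 (NKCC1), which carries sodium, potassium and chloride in, was at 787 and 733 in KI LN, 327 and 350.2 in Tg LN and 281 and 345 in Wt LN, with both KI values above the rest (1.29 ± 0.19 SE, limma adjusted p = 0.000974). In spleen it did not pass (0.55, limma adjusted p = 0.0782).

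The phosphate importers of the plasma membrane also divided. Slc20a1 (PiT1) was at 1557 and 1731 in KI LN, 2856 and 3307 in Tg LN and 2488 and 2433 in Wt LN. In spleen the values were 1314 and 1412 in KI spleen, 2869 in Tg spleen and 2634 and 2284 in Wt spleen. KI libraries were the lowest in each tissue, with differences of -0.58 ± 0.12 (SE, limma adjusted p = 0.00446) and -0.85 ± 0.12 (SE, limma adjusted p = 0.00141). Slc20a2 (PiT2) was at 725 and 747 in KI LN, 461 and 522 in Tg LN and 353 and 427 in Wt LN, where KI libraries were the highest (0.92 ± 0.14 SE, limma adjusted p = 0.00121), and was not called in spleen (0.27, limma adjusted p = 0.223). Slc26a10, of the anion transporter family, had the largest decrease of the called members in both tissues. It was at 159 and 177 in KI LN, 635 and 435 in Tg LN and 419 and 722 in Wt LN. The spleens stood at 186 and 209.9 in KI spleen, 321 in Tg spleen and 614 and 468 in Wt spleen. All KI values lay below all others, with differences of -1.71 ± 0.27 (SE, limma adjusted p = 0.00152) and -1.43 ± 0.27 (SE, limma adjusted p = 0.00736).

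The anion exchanger Slc4a3 was at 206 and 113 in KI LN, 66.5 and 38 in Tg LN and 37.1 and 24.1 in Wt LN, and both KI values lay above all others although they differed from each other (2.31 ± 0.43 SE, limma adjusted p = 0.00331). Among LN libraries only those of KI reached 109.3, as every gene of the deposited table does somewhere. The p-value of Slc4a3 may thus not be independent of that filter. The sodium-bicarbonate cotransporter Slc4a7 (0.81, limma adjusted p = 0.00195) and the sodium-proton exchangers Slc9a5 (1.09, limma adjusted p = 0.0254) and Slc9a7 (0.77, limma adjusted p = 0.00543) were higher in KI LN and not called in spleen. Slc4a1 (band 3), the anion exchanger of red cells, was at 1214 and 327 in KI spleen, 56.7 in Tg spleen and 17.6 and 126 in Wt spleen. It varied within genotypes, was not called (3.70 ± 2.52 SE, limma adjusted p = 0.373), and in LN was listed at 0 in Wt mouse 1 and at 140.0 in Wt mouse 2. The erythroid sum given with Slc48a1 covers 9 measured of 13 markers, and its higher KI value is that of mouse 5. LN calls lost without libraries of 1 mouse were Slc20a1 without mouse 5 (-0.51), Slc4a3 without mouse 5 (1.88), Slc9a5 without mouse 1, 2 or 5 (0.81 to 1.30) and Slc9a7 without mouse 1 or 5 (0.57 to 0.74), and the spleen call lost was Slc26a10 without mouse 1, 5 or 6 (-1.52 to -1.24). edgeR did not call Slc9a5 in LN.

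Of 13 sugar transporters, 1 was higher and 3 lower in KI LN, and 1 was higher and 2 lower in KI spleen. That is 30.8% called in LN beside 26% of all genes, and 23.1% in spleen beside 16.8% of all genes. The class medians of -0.075 in LN and 0.068 in spleen became 0.059 and 0.16 when immunoglobulin and haemoglobin genes were left out of the scaling. Slc2a3 (GLUT3), a high-affinity glucose carrier, was at 784 and 756 in KI LN, 917 and 1330.1 in Tg LN and 1118 and 1340.1 in Wt LN. Spleen values were 1002 and 951 in KI spleen, 1897 in Tg spleen and 1329 and 1831 in Wt spleen. KI values were the lowest in both tissues, with differences of -0.67 ± 0.19 (SE, limma adjusted p = 0.0287) and -0.68 ± 0.19 (SE, limma adjusted p = 0.0389). Slc37a1, an exchanger of glucose 6-phosphate and phosphate in the ER, was at 755 and 818 in KI LN, 1060.0 and 1267 in Tg LN and 1316 and 1219 in Wt LN. Its spleen values were 539 and 653 in KI spleen, 874 in Tg spleen and 897 and 906 in Wt spleen. KI values were again the lowest (-0.69 ± 0.13 SE, limma adjusted p = 0.0037 and -0.60 ± 0.13 SE, limma adjusted p = 0.0126). Slc2a9, a urate carrier of the GLUT family, was at 124 and 143 in KI LN, 238 and 209 in Tg LN and 258 and 211 in Wt LN (-0.81 ± 0.21 SE, limma adjusted p = 0.0151). The higher gene was Slc45a4, of the proton-coupled sugar carrier family, at 729.9 and 777 in KI LN, 508 and 574 in Tg LN and 463 and 526 in Wt LN. In spleen the values were 744 and 803 in KI spleen, 499 in Tg spleen and 527 and 557 in Wt spleen. Its KI values topped both tissues (0.61 ± 0.13 SE, limma adjusted p = 0.00537 and 0.51 ± 0.13 SE, limma adjusted p = 0.0198). Slc2a1 (GLUT1), the basal glucose carrier, was at 936 and 871 in KI LN, 1523 and 1354 in Tg LN and 968 and 1397 in Wt LN. Its KI values were the lowest in LN, but neither tissue passed against Wt (-0.36, limma adjusted p = 0.11 in LN, -0.39, limma adjusted p = 0.105 in spleen). LN calls lost without libraries of 1 mouse were Slc2a3 without mouse 2, 5 or 6 (-0.69 to -0.54), Slc2a9 without mouse 1, 2 or 5 (-0.95 to -0.66) and Slc45a4 without mouse 1 or 6 (0.52 to 0.56). Spleen calls lost were Slc2a3 without mouse 2, 5 or 6 (-0.71 to -0.45), Slc37a1 without mouse 1, 2 or 5 (-0.61 to -0.46) and Slc45a4 without mouse 1, 2, 5 or 6 (0.46 to 0.57). Slc2a3 was also not called in LN when immunoglobulin and haemoglobin genes were left out of the scaling. Of 19 genes of glycolysis and glucose handling, 2 were higher and 7 lower in KI LN and 1 higher and 5 lower in KI spleen.

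Of the 34 mitochondrial Slc25 carriers, 1 was higher and 5 were lower in KI LN, and 2 were higher and 3 lower in spleen. Beside this, 13.8% of all genes were higher and 12.2% lower in LN, and 7.63% higher and 9.21% lower in spleen. The LN median of the Slc25 class was -0.13, and it became 0.0053, with 4 higher and 3 lower, when immunoglobulin and haemoglobin genes were left out of the scaling. Slc25a5, the ADP/ATP carrier, was at 3724 and 3647 in KI LN, 4835 and 4269.6 in Tg LN and 5089 and 4708 in Wt LN. Spleen signal was 3191 and 3038 in KI spleen, 4703 in Tg spleen and 4535 and 4599.8 in Wt spleen. KI values were the lowest in both tissues, with differences of -0.41 ± 0.10 (SE, limma adjusted p = 0.0135) and -0.55 ± 0.10 (SE, limma adjusted p = 0.00608). Slc25a3, which imports phosphate for ATP synthesis, was at 6495 and 5525 in KI LN, 7639.7 and 8652 in Tg LN and 7731 and 8325 in Wt LN. Spleen values were 6031 and 6208 in KI spleen, 9237 in Tg spleen and 9304 and 8587 in Wt spleen. It too was lowest in KI libraries (-0.42 ± 0.12 SE, limma adjusted p = 0.0239 and -0.55 ± 0.12 SE, limma adjusted p = 0.0123). Of 76 genes of the respiratory chain, 1 was higher and 4 lower in KI LN and none higher and 8 lower in KI spleen. These counts stand beside 26% of all genes called in LN and 16.8% in spleen. The other LN decreases of Slc25 members were those of Slc25a23, an ATP-Mg/phosphate carrier (-0.77, limma adjusted p = 0.00688), the carnitine-acylcarnitine carrier Slc25a20 (-0.60, limma adjusted p = 0.0118) and Slc25a30 (-0.55, limma adjusted p = 0.00972). In spleen the ATP-Mg/phosphate carrier Slc25a24 was lower (-0.61, limma adjusted p = 0.0432).

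Slc25a37 (mitoferrin 1), which imports iron for haem synthesis and is abundant in erythroid cells, was at 4660.1 and 4542 in KI spleen, 3314 in Tg spleen and 2760.0 and 2615 in Wt spleen. Both KI spleens were above all other spleens (0.78 ± 0.16 SE, limma adjusted p = 0.00886). The erythroid marker sums of the KI spleens were 25170 in mouse 5 and 2986 in mouse 6, against 737.8 to 1082 in Wt spleen. Of the 9 erythroid markers 1 was higher in KI spleen, where 7.63% of all genes were higher. The part of erythroid cells in the Slc25a37 difference was not tested. In LN Slc25a37 was at 3220.2 and 2620.4 in KI LN, 1997 and 2819.7 in Tg LN and 2175 and 2336 in Wt LN and not called (0.37, limma adjusted p = 0.111). The ornithine carrier Slc25a15 was at 304 and 289 in KI spleen, 196 in Tg spleen and 184 and 180.1 in Wt spleen, and higher in KI spleen (0.70 ± 0.16 SE, limma adjusted p = 0.0141). The pyrimidine nucleotide carrier Slc25a33 was higher in KI LN (0.83, limma adjusted p = 0.0183). LN calls lost without libraries of 1 mouse were Slc25a5 without mouse 1, 2, 5 or 6 (-0.47 to -0.35), Slc25a3 without mouse 1, 2, 5 or 6 (-0.54 to -0.30), Slc25a30 without mouse 1 or 6 (-0.47 to -0.43), Slc25a20 without mouse 2 or 5 (-0.53 to -0.52), Slc25a23 without mouse 5 (-0.76) and Slc25a33 without mouse 1, 2, 5 or 6 (0.70 to 0.96). Spleen calls lost were Slc25a5 without mouse 1, 2, 5 or 6 (-0.59 to -0.52), Slc25a3 without mouse 1, 2, 5 or 6 (-0.60 to -0.49), Slc25a37 without mouse 1, 2, 5 or 6 (0.74 to 0.81), Slc25a15 without mouse 1, 2, 5 or 6 (0.66 to 0.74) and Slc25a24 without mouse 1, 2, 5 or 6 (-0.73 to -0.49). Without immunoglobulin and haemoglobin genes in the scaling, Slc25a5 and Slc25a3 were not called in LN, nor Slc25a24 in spleen. edgeR did not call Slc25a3 or Slc25a33 in LN.

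**Figure D3:**
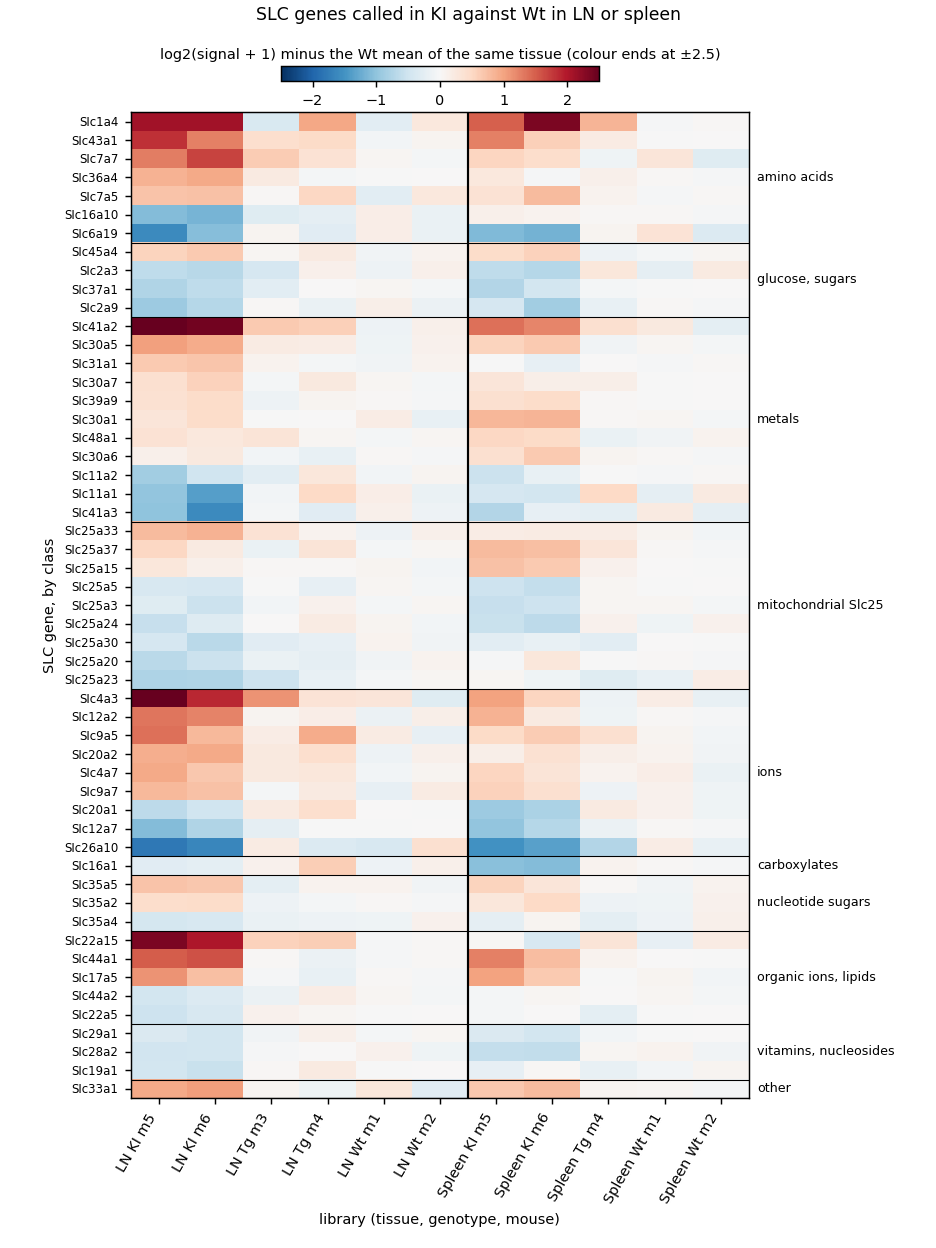
Log2 signal relative to the Wt mean of the same tissue (colour, red above and blue below) for all but 1 of the SLC genes called in KI against Wt in LN or spleen, grouped by transport class (rows). Columns are libraries in the order KI, Tg and Wt within LN (left of the line) and spleen (right). In the tissue of its call, each gene has the same colour in both KI mice.

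Among organic ion and lipid transporters, 3 of 12 were higher and 2 lower in KI LN, and 2 higher in KI spleen. The shares over all genes were 13.8% higher and 12.2% lower in LN, and 7.63% higher and 9.21% lower in spleen. Slc44a1, which brings choline into the cell, was at 991 and 1049 in KI LN, 355 and 312 in Tg LN and 337 and 356 in Wt LN. Its spleen values were 987 and 701 in KI spleen, 438 in Tg spleen and 416 and 409.8 in Wt spleen. KI values were the highest in both tissues, with differences of 1.56 ± 0.16 (SE, limma adjusted p = 0.000117) and 1.01 ± 0.16 (SE, limma adjusted p = 0.0031). The related Slc44a2 was lower in LN (-0.41, limma adjusted p = 0.036). Slc17a5 (sialin), which exports sialic acid from the lysosome, was at 306 and 237 in KI LN, 139 and 124 in Tg LN and 144 and 138 in Wt LN. In spleen the values were 292 and 228 in KI spleen, 145 in Tg spleen and 151 and 138 in Wt spleen. It was highest in KI libraries of each tissue (0.93 ± 0.20 SE, limma adjusted p = 0.00715 and 0.83 ± 0.20 SE, limma adjusted p = 0.0196). Slc22a15, an organic zwitterion transporter, was at 486 and 387 in KI LN, 140.1 and 145 in Tg LN and 91.9 and 96.3 in Wt LN, with KI far above the others (2.19 ± 0.22 SE, limma adjusted p = 0.000103). In spleen its values overlapped, at 187 and 139 in KI spleen, 230.0 in Tg spleen and 158 and 212 in Wt spleen. The carnitine importer Slc22a5 was lower in LN (-0.46, limma adjusted p = 0.0203).

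Carriers that supply the ER and Golgi were also called. Slc33a1, which takes acetyl-CoA into the ER, was at 261 and 280.4 in KI LN, 142 and 126 in Tg LN and 164 and 112 in Wt LN. The spleens stood at 220.4 and 238 in KI spleen, 145 in Tg spleen and 142 and 134 in Wt spleen. KI values exceeded all others in both tissues (0.99 ± 0.21 SE, limma adjusted p = 0.00634 and 0.73 ± 0.21 SE, limma adjusted p = 0.0388). Of 5 nucleotide sugar transporters, the UDP-galactose carrier Slc35a2 (0.46, limma adjusted p = 0.0311) and Slc35a5 (0.69, limma adjusted p = 0.0143) were higher in KI LN and Slc35a4 was lower (-0.42, limma adjusted p = 0.0364), with none of the 5 called in spleen, where 2 passed an unadjusted p under 0.05. The shares of all genes called were 26% in LN and 16.8% in spleen.

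Of 10 vitamin and nucleoside transporters, 3 were lower in KI LN and 2 in KI spleen, with none higher. Lower genes made up 12.2% of all genes in LN and 9.21% in spleen, and higher genes 13.8% and 7.63%. The nucleoside carriers Slc29a1 (ENT1) and Slc28a2 (CNT2) were lower in both tissues. Slc28a2 was at 2154 and 2201 in KI LN, 2949 and 3050.1 in Tg LN and 3277 and 2786 in Wt LN. Spleen values were 1945 and 1901 in KI spleen, 3020.4 in Tg spleen and 3085 and 2767 in Wt spleen (-0.47 ± 0.11 SE, limma adjusted p = 0.00906 and -0.60 ± 0.11 SE, limma adjusted p = 0.00528). KI values were the lowest, but its near-identical copy Slc28a2b may share reads with it, which makes the value uncertain. Slc29a1 differed by -0.42 (limma adjusted p = 0.0307) in LN and -0.41 (limma adjusted p = 0.0454) in spleen. The folate carrier Slc19a1 was lower in LN (-0.51, limma adjusted p = 0.0254). Of 5 carboxylate carriers none was called in LN, where none passed an unadjusted p under 0.05 either. In spleen the lactate and pyruvate carrier Slc16a1 (MCT1) was at 242 and 234 in KI spleen, 531 in Tg spleen and 507 and 493 in Wt spleen, and both KI values lay below the others (-1.07 ± 0.18 SE, limma adjusted p = 0.00362). Of 22 partner proteins and carriers of other families, such as Bsg and Vdac1, 1 was higher and 3 lower in KI LN and none higher and 3 lower in KI spleen. LN calls lost without libraries of 1 mouse among the genes of these classes were Slc17a5 without mouse 2 or 5 (0.75 to 0.90), Slc44a2 without mouse 1, 2, 5 or 6 (-0.47 to -0.35), Slc22a5 without mouse 1, 2, 5 or 6 (-0.51 to -0.41), Slc33a1 without mouse 2, 5 or 6 (0.72 to 1.04), Slc35a5 without mouse 1, 2, 5 or 6 (0.61 to 0.78), Slc35a2 without mouse 1, 2, 5 or 6 (0.42 to 0.49), Slc35a4 without mouse 1, 2, 5 or 6 (-0.53 to -0.32), Slc29a1 without mouse 1, 2, 5 or 6 (-0.47 to -0.37), Slc28a2 without mouse 1, 5 or 6 (-0.49 to -0.36) and Slc19a1 without mouse 1, 2, 5 or 6 (-0.57 to -0.46). Spleen calls lost were Slc17a5 without mouse 1, 2, 5 or 6 (0.65 to 1.01), Slc33a1 without mouse 1, 2, 5 or 6 (0.67 to 0.78), Slc29a1 without mouse 1, 2, 5 or 6 (-0.46 to -0.36) and Slc28a2 without mouse 1, 5 or 6 (-0.62 to -0.52). edgeR did not call Slc44a2, Slc22a5, Slc35a2 or Slc29a1 in LN. Without immunoglobulin and haemoglobin genes in the scaling, Slc44a2, Slc22a5, Slc35a4, Slc19a1 and Slc29a1 were not called in LN, nor Slc29a1 in spleen.

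Calls in KI against Wt were set side by side between LN and spleen. Of the 25 members higher in LN, 10 were also higher in spleen, which is 40% of the LN list and 66.7% of the spleen list. Among them were Slc1a4, Slc43a1, Slc41a2, Slc30a5, Slc39a9, Slc44a1, Slc17a5, Slc33a1 and Slc45a4. Of the 22 lower in LN, 10 were also lower in spleen (45.5% and 83.3% of the lists). These were Slc2a3, Slc37a1, Slc6a19, Slc25a3, Slc25a5, Slc12a7, Slc20a1, Slc26a10, Slc28a2 and Slc29a1. Over all 10885 genes, the shared genes made up 34.4% of the LN list and 62.2% of the spleen list among the higher, and 45.2% and 59.9% among the lower. Whether the SLC shares differ from these was not tested. The tissues came from the same mice, so this is not a repeat in other animals. The difference of the knock-in effect between tissues was called for 2 members, 1 higher in LN and 1 lower, where 0.955% of all genes were called, 0.763% higher and 0.193% lower. For Slc22a15 the LN effect exceeded the spleen effect by 2.38 ± 0.31 (SE, limma adjusted p = 0.0168), and for Slc16a10 the difference was -1.23 ± 0.24 (SE, limma adjusted p = 0.0454). Calls were lost for Slc22a15 without mouse 1, 2, 5 or 6 (2.16 to 2.56) and Slc16a10 without mouse 1, 2, 5 or 6 (-1.37 to -1.05). With the mouse as a fixed replicate block, 4 members were higher and 1 lower.

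**Figure D4:**
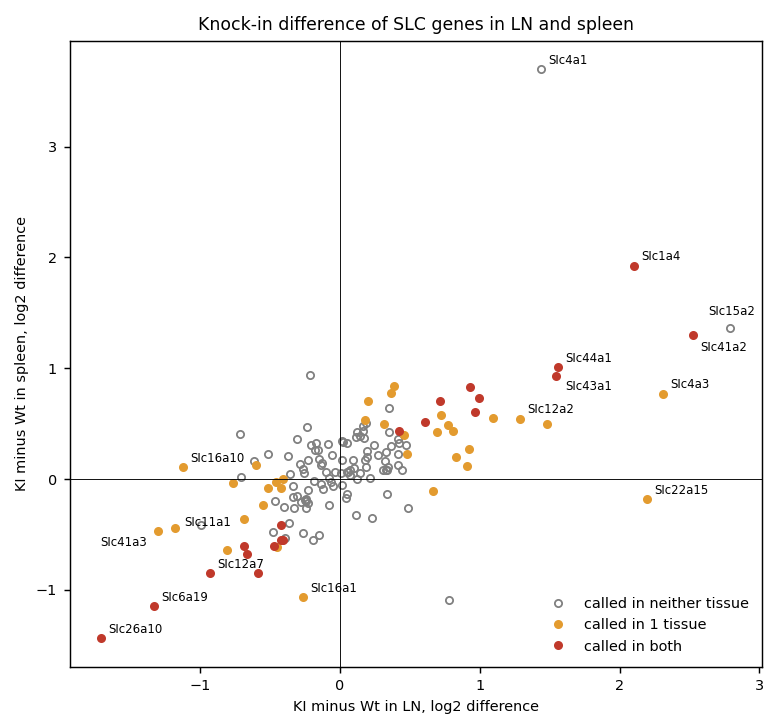
Log2 difference of KI minus Wt in LN (x axis) and in spleen (y axis) for the 157 SLC genes. Red points were called in both tissues, orange in 1 and grey open points in neither. Slc41a2 and Slc1a4 stand at the upper right, Slc26a10 and Slc6a19 at the lower left, and Slc22a15 and Slc16a10 differ in LN and lie near 0 in spleen.

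The second setting, BCL2 under the 3'RR, gave no called SLC gene in either tissue. In LN 0 members were called in Tg against Wt by limma, edgeR or DESeq2, and 0% of all genes by limma or edgeR, while DESeq2 called 27 genes higher and 1 lower, and 7 members had an unadjusted p under 0.05. In spleen, with 1 Tg library assumed to vary like the other groups, limma called 0 members and 0% of all genes, with 2 members at an unadjusted p under 0.05. In LN the member with the smallest p was Slc41a2, for which both Tg values given above lay between the KI and the Wt values, with a difference of 0.63 (limma adjusted p = 0.874). The heavy chain Slc3a2 stood at 4398 and 4256 in KI LN, 4573 and 4322 in Tg LN and 2938 and 4013 in Wt LN, so Tg values exceeded Wt without passing (0.37, limma adjusted p = 0.96). In spleen Slc26a10 had -0.74 (limma adjusted p = 1) and the riboflavin carrier Slc52a2 -0.41 (limma adjusted p = 1).

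Set against each other in LN, the 2 BCL2 settings differed in 23 members higher in KI than in Tg and 25 lower, where 26.7% of all genes were called, 14.5% higher and 12.2% lower. This comparison shares its KI libraries with that against Wt. With immunoglobulin and haemoglobin genes left out of the scaling, 32 were higher and 19 lower. Among the calls that held in every alternative were Slc41a2 (1.90 ± 0.18 SE, limma adjusted p = 0.000115), Slc44a1 (1.61), Slc22a15 (1.60), Slc12a2 (1.16) and Slc30a5 (0.77), all higher. The lower ones were Slc26a10 (-1.64 ± 0.27 SE, limma adjusted p = 0.00205), Slc11a1 (-1.39), Slc20a1 (-0.90) and Slc12a7 (-0.80). Some members were called here and not against Wt in LN, among them Slc2a1 (-0.67 ± 0.15 SE, limma adjusted p = 0.01) and Slc16a1 (-0.63 ± 0.18 SE, limma adjusted p = 0.0241), both lower in KI. Against Wt both were also lower without passing (-0.36 and -0.27), so a call in 1 comparison alone does not show that the comparisons differ. Their calls were lost for Slc2a1 without mouse 3, 5 or 6 (-0.72 to -0.58) and Slc16a1 without mouse 4, 5 or 6 (-0.65 to -0.37), and edgeR did not call Slc16a1. Among the larger differences, Slc1a4 (1.81), Slc4a3 (1.58) and Slc43a1 (1.10) were also higher in KI than in Tg, and Slc22a23 (-1.51), Slc6a19 (-1.22), Slc41a3 (-1.13) and Slc16a10 (-0.86) lower. These calls were lost for Slc1a4 without mouse 3, 5 or 6 (1.14 to 1.82), Slc4a3 without mouse 4 or 5 (1.15 to 1.19), Slc43a1 without mouse 5 (0.81), Slc22a23 without mouse 3 or 5 (-1.20 to -1.08), Slc6a19 without mouse 5 (-0.95), Slc41a3 without mouse 3 or 6 (-1.01 to -0.83) and Slc16a10 without mouse 6 (-0.83). The counts fell to 9 higher and 7 lower without mouse 5, to 11 and 9 without mouse 6, to 11 and 10 or 16 and 13 without the LN library of KI mouse 5 or 6 with all spleens kept, and to 16 lower by edgeR.

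Tissue was compared within genotype, in the fit of group means with no mouse term. In KI mice 4 of the 157 members were higher in LN than in spleen and 10 lower, where 9.27% of all genes were called, 4.78% higher and 4.49% lower. In Wt mice 4 were higher and 18 lower, where 9.38% of all genes were called, 3.09% higher and 6.29% lower. With the mouse as a fixed replicate block, the counts became 6 higher and 19 lower in KI and 11 higher and 22 lower in Wt. Quantile normalisation turned the Wt split to 8 higher and 9 lower. The counts also rested on single libraries. In KI, omitting 1 library gave 1 or 2 higher and 3 to 7 lower, omitting all libraries of mouse 5 gave 1 higher and 3 lower, and omitting those of mouse 6 gave 0 higher and 1 lower. In Wt, 1 was higher and 3 lower without the LN library of mouse 1 or the spleen library of mouse 2, 1 higher and 6 lower without the spleen library of mouse 1 or all libraries of mouse 2, 4 higher and 13 lower without the LN library of mouse 2, and 0 higher and 2 lower without all libraries of mouse 1. Slc11a1 was the only member whose tissue call held in every alternative, in both genotypes. With the LN values given above, its spleen values were 431 and 423 in KI spleen, 822 in Tg spleen and 497 and 676 in Wt spleen, and every spleen lay above every LN. The difference was -3.45 ± 0.25 (SE, limma adjusted p = 3.65e-05) in KI and -2.71 ± 0.25 (SE, limma adjusted p = 0.000223) in Wt. The macrophage marker sum was 1364 to 3607 over LN libraries, against 9458 to 11830 over spleen libraries. The sum of 13 neutrophil markers, none at 0 in all libraries of a group, was 162.9 to 1949 over LN libraries, against 2521 to 53520 over spleen libraries. It was highest in spleen of Tg mouse 4 and Wt mouse 2, the spleens where Slc11a1 was highest. In KI spleen the sum was 2521 in mouse 5 and 7593 in mouse 6, the opposite order to Slc11a1. In LN the sum was 571.2 to 676.1 in KI and 162.9 to 1949 in Wt, while Slc11a1 was lowest in KI. The part of either cell type was not tested.

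Slc45a3, a relative of Slc45a4, was at 11 and 4.6 in KI LN, 7.08 and 17.7 in Tg LN and 8.06 and 4.38 in Wt LN. Its spleen values were 81.5 and 118 in KI spleen, 101 in Tg spleen and 132 and 119 in Wt spleen. LN values were low, so the fitted differences of -3.60 (limma adjusted p = 0.005) in KI and -4.18 (limma adjusted p = 0.00219) in Wt depend on the added constant of 1. The sodium-calcium exchanger Slc8a1 was at 20.9 and 27.6 in KI LN, 41 and 25.3 in Tg LN and 27.4 and 37.2 in Wt LN. In spleen the values were 122 and 97.4 in KI spleen, 118 in Tg spleen and 125 and 135 in Wt spleen. It was lower in LN in both genotypes (in KI -2.14, limma adjusted p = 0.00491, in Wt -1.99, limma adjusted p = 0.00657). Slc45a3 and Slc8a1 reached 109.3, as every gene of the deposited table does somewhere, only in spleen libraries. Their place in the table thus rests on the tissue where they are high, and their p-values are not independent of that. Also lower in LN in both genotypes were Slc7a8 (LAT2), a neutral amino acid exchanger (in KI -2.29, limma adjusted p = 0.00649, in Wt -1.56, limma adjusted p = 0.0373), and the monocarboxylate carrier Slc16a7 (in KI -0.95, limma adjusted p = 0.0364, in Wt -0.88, limma adjusted p = 0.0485). The lactate exporter Slc16a3 (MCT4) was at 133 and 86.2 in KI LN, 62.3 and 81.9 in Tg LN and 48.4 and 78.8 in Wt LN. Spleen signal was 178 and 153 in KI spleen, 769.9 in Tg spleen and 175 and 707 in Wt spleen. It was called lower in LN in Wt (-2.49, limma adjusted p = 0.0471), with Wt spleens far apart. The neutrophil marker sum was 2521 and 7593 in spleen of KI mice 5 and 6, 46230 in that of Tg mouse 4, 6971 in that of Wt mouse 1 and 53520 in that of Wt mouse 2. The sum and Slc16a3 were both highest in spleen of Tg mouse 4 and Wt mouse 2. Between the KI spleens their order was opposite. In LN the sum was highest in Wt mouse 2 (1949), where Slc16a3 was at 78.8, and Slc16a3 was highest in KI mouse 5. The part of neutrophils was not tested. Slc12a7 was higher in LN in both genotypes (in KI 0.71, limma adjusted p = 0.00953, in Wt 0.79, limma adjusted p = 0.00548). Slc41a2 and Slc22a15 were higher in LN in KI mice (0.74, limma adjusted p = 0.0284 and 1.42, limma adjusted p = 0.00312), while in Wt mice Slc22a15 was lower in LN (-0.95, limma adjusted p = 0.0213). In KI, calls lost without libraries of 1 mouse were Slc45a3 without mouse 6 (-3.33 to -2.78), Slc8a1 without mouse 5 or 6 (-2.49 to -1.78), Slc7a8 without mouse 5 or 6 (-2.39 to -1.92), Slc16a7 without mouse 5 or 6 (-1.06 to -0.84), Slc12a7 without mouse 5 or 6 (0.55 to 0.74), Slc41a2 without mouse 5 or 6 (0.63 to 0.84) and Slc22a15 without mouse 6 (1.37). In Wt they were Slc45a3 without mouse 1 (-4.48), Slc8a1 without mouse 1 or 2 (-2.15 to -1.78), Slc7a8 without mouse 1 or 2 (-1.89 to -1.24), Slc16a7 without mouse 1 or 2 (-1.28 to -0.49), Slc16a3 without mouse 1 or 2 (-2.84 to -1.49), Slc12a7 without mouse 1 or 2 (0.76 to 0.81) and Slc22a15 without mouse 1 or 2 (-1.13 to -0.74).

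Other members called between tissues are given by their log2 difference, LN minus spleen. In KI mice Slc16a10 (-1.34), Slc4a11 (-1.17), Slc37a2 (-0.91), Slc25a37 (-0.66) and Slc66a1 (-0.56) were lower in LN, and Slc36a4 (0.69) was higher. In Wt mice Slc43a1 (-1.33), Slc7a7 (-1.20), Slc43a3 (-0.92), Slc12a2 (-0.83), Slc15a3 (-0.78), Slc2a6 (-0.69), Slc66a2 (-0.66), Slc66a1 (-0.59), Slc3a2 (-0.57) and Slc31a1 (-0.56) were lower in LN, and Slc16a5 (1.22), Slc39a14 (0.59) and Slc37a1 (0.49) were higher. Each of these calls was lost when some library or mouse was left out. Among them are the lysosomal amino acid exporter Slc66a1, the heavy chain Slc3a2 and the monocarboxylate family member Slc16a5.

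**Figure D5:**
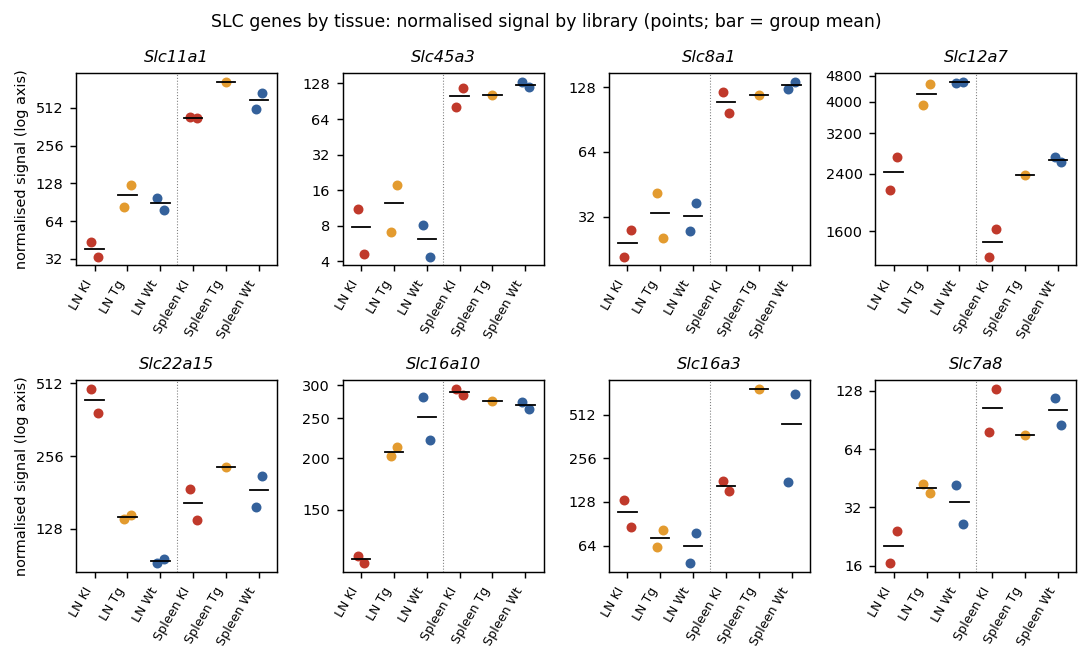
Normalised signal (log axis) of 8 SLC genes in each library, with LN left of the dotted line and spleen right, and KI, Tg and Wt in that order. Points are mice and bars are group means. Slc11a1, Slc45a3, Slc8a1 and Slc7a8 are lower in every LN library than in every spleen library, while in LN Slc22a15 is highest and Slc16a10 lowest in KI.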

How the data were processed

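Per the submitters' processing notes, the tools were FastQC 0.11.5, STAR 2.5, featureCounts, Subread 1.4.6 and DESeq2 1.26.0, with GRCm39 as build. Strand setting is not given in the sources used here, so reads of overlapping genes cannot be told apart. The authors deposited a normalised signal per gene, for 10885 genes that each reach at least 109.3 somewhere. In every library all values (100%) were whole multiples of a common step, within 0.05 reads, as counts divided by a size factor are. Only LN had enough low values to check recovered reads, so edgeR 4.0.16 and DESeq2 1.42.0 were run on LN (edgeR called 1228 genes higher and 931 lower in KI against Wt).

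limma-trend 3.58.1 (R 4.3.3) was fitted to log2(signal + 1), with 6 group means over 11 libraries and 5 residual degrees of freedom. The added 1 understates changes of low genes. Calls are Benjamini-Hochberg adjusted p under 0.05 over all genes, and the fit was tested on simulated data. With 2 mice a group, p-values rest on a spread pooled over groups.

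Members and lists were chosen with earlier results of these data known. Named were called members without overlap, up to 10 each way, up to 4 called (else 2) per class, and a set list of transporters. Further names were chosen after their values were seen. The values of 1 member are not reported here, but it is kept in counts. LN and spleen of a replicate number share a mouse per the labels, and their deviations from group means correlated at 0.90 in KI and 0.403 in Wt. Alternatives covered the added constant, a filter, scaling, omitted libraries and the mouse block.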

Additional observations from a re-analysis of the deposited data

Results flagged for a closer look

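The effect of the knock-in differed between tissues, by the interaction term of the limma fit, for 2 of the 157 members. For Slc22a15 the KI minus Wt difference was 2.38 log2 units higher in LN than in spleen. Both KI LN values exceeded all Wt LN values, while the spleen values of the genotypes overlapped. For Slc16a10 the difference was -1.23, with both KI LN values below all Wt LN values and all KI spleen values slightly above Wt. Both calls were lost when some libraries were left out, with Slc22a15 between 2.16 and 2.56 and Slc16a10 between -1.37 and -1.05 in those fits.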

How the results depend on the processing

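In the fits that left out a library or all libraries of 1 mouse, counts of called members ran as follows. KI against Wt gave 12 to 21 higher and 7 to 13 lower in LN (10 lower without mouse 1, mouse 6 or the KI LN library of mouse 5), and 4 to 7 higher and 3 to 8 lower in spleen. KI against Tg in LN gave 9 to 27 higher and 7 to 23 lower (10 without the KI LN library of mouse 5). LN against spleen gave 0 to 2 higher and 1 to 7 lower in KI and 0 to 4 higher and 2 to 13 lower in Wt, and the knock-in effect between tissues 0 to 2 higher and 0 to 1 lower. Tg against Wt gave 0 in each. Leaving out the only Tg spleen library left no value. Without immunoglobulin and haemoglobin genes, KI against Wt gave 41 higher and 14 lower in LN and 33 higher in spleen, and the knock-in effect between tissues 2 higher. With the compared libraries alone, KI against Tg gave 16 lower, LN against spleen 17 lower in KI and 7 higher in Wt, and the knock-in effect between tissues 2 higher. Quantile normalisation gave 8 higher and 9 lower for LN against spleen in Wt. Keeping genes with a mean signal of at least 100 gave 5 lower for LN against spleen in KI. Averaging Wt and Tg tissue differences gave 13 higher. edgeR gave 16 lower for KI against Tg, and 19 higher and 17 lower for KI against Wt in LN. The replicate block, with mouse as a fixed term, gave 19 lower in KI and 11 higher in Wt for LN against spleen and 4 higher for the knock-in effect between tissues, and as a random term (consensus correlation 0.0168) it moved no count by over 1.5 times. The cause of these changes was not tested. edgeR and DESeq2 were not run on spleen, where low values were too few to check recovered reads. Of 47 called members in KI against Wt in LN, 15 held in every alternative, and 6 of 27 in spleen. Genes under a signal of 109.3 everywhere could not be examined, and low members such as Slc45a3 rest on few reads in LN.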

Other observations

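Slc15a2, a proton-coupled peptide transporter, differed widely between mice of 1 genotype. It was singled out after its values were seen. Its normalised signal was 57.1 and 1092 in KI LN, 1037 and 529 in Tg LN and 414 and 2.19 in Wt LN. In spleen it was 49.7 and 812 in KI spleen, 550.2 in Tg spleen and 518 and 11 in Wt spleen. KI mouse 5 was low and KI mouse 6 high in both tissues, by -4.23 and -4.00 log2 units (mouse 5 minus mouse 6), and Wt mouse 1 was high and Wt mouse 2 low, by 7.03 and 5.43 (mouse 1 minus mouse 2). Besides Slc15a2 in both genotypes, Slc4a1 in Wt was the only member that differed over 2-fold in the same direction in both tissues between 2 mice of a genotype.

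Slc22a3, an organic cation transporter, was at 1.1 and 0 in KI LN, 1.42 and 0.844 in Tg LN and 1.61 and 2.19 in Wt LN. Spleen values were 27.4 and 14.3 in KI spleen, 119 in Tg spleen and 18.6 and 38.5 in Wt spleen. Every LN lay below every spleen, but the tissue difference did not pass limma in KI (adjusted p = 0.0566) or Wt (adjusted p = 0.099). Only Tg spleen reached 109.3, so the place of Slc22a3 in the deposited table rests on the tissue where it is high.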
